A study of Mus musculus with 4 samples.

Results

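The Hippo pathway genes examined in aortic chromatin were the transcription factor genes *Tead1*, *Tead2*, *Tead3* and *Tead4*, the coactivator genes *Yap1* and *Wwtr1*, the kinase genes *Lats1* and *Lats2*, and the genes *Amotl2* and *Ankrd1*. These are 10 of 21938 protein-coding genes annotated in GENCODE vM21. Every ATAC-seq peak lying in the gene body or within 20 kb of it was taken, which gave 86 peaks in 63 regions after overlapping peaks of different libraries were merged. The regions of each gene are numbered here along the direction of transcription. Aortic nuclei came from mice at P60, on a C57BL/6J background per the methods. Control mice were Col3a1+/+, and VEDS mice, a model of vascular Ehlers-Danlos syndrome, were Col3a1G938D/+, which carries a heterozygous glycine substitution in the type III collagen chain. Each genotype had 1 library from females and 1 from males, and each library pooled 2 mice.

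ATAC-seq uses the transposase Tn5, which inserts adapters where DNA is open and so marks open regions by a pile of fragments, a peak. The nuclei went through a single-cell kit, but the peaks were called over all nuclei of a library, so cell types are not separated and a weaker peak cannot be told apart from a peak in fewer cells. The control lists held 21176 (female) and 1236 (male) peaks, and the VEDS lists 504 (female) and 41444 (male). The medians at the summit, the position of greatest coverage, were 14, 7, 6 and 22 fragments in the same order. Fragments here means the height of the pile at the summit, in which a fragment may count more than once. The intervals given for fragments treat these counts as independent. In the control male list, 69.6% of the peaks lay mostly in repeat-masked sequence. All 6 smooth muscle marker genes (*Myh11*, *Acta2*, *Tagln*, *Cnn1*, *Lmod1* and *Smtn*) had a promoter peak in the control female list and in the VEDS male list, called the long lists here, and 0 had any peak in either short list. Of the other marker genes, *Pecam1*, an endothelial gene, alone had a peak in the short lists, 1 in each and neither at the promoter. Promoter peaks at other markers, first in control female and then in VEDS male, numbered 0 and 2 of 4 endothelial genes, 1 and 1 of 4 fibroblast genes, 0 and 0 of 2 immune genes, 0 and 0 of 3 adipocyte genes, 0 and 1 of 3 striated muscle genes, and 0 and 2 of 4 genes of unrelated tissues. Any peak in the gene body or within 20 kb was found in the same order at 2 and 4 endothelial, 2 and 2 fibroblast, 1 and 1 immune, 2 and 3 adipocyte, 2 and 2 striated muscle and 1 and 3 unrelated-tissue genes. Their part in the results was not tested.

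In the Hippo pathway, a cascade of kinases ending in LATS1 and LATS2 phosphorylates the coactivators YAP (*Yap1*) and TAZ (*Wwtr1*) and holds them in the cytoplasm. When the kinases are less active, as on stiff matrix or under tension, YAP and TAZ enter the nucleus and bind DNA through TEAD proteins, often at enhancers that AP-1 factors also occupy. *Ankrd1*, *Amotl2* and *Lats2* are known targets of this complex, and the products of *Amotl2* and *Lats2* restrain YAP in turn. In the arterial wall the pathway is studied for its response of smooth muscle cells to mechanical load.

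A TEAD consensus match was in the summit windows of both long lists in 4 regions, and their sequences show the match in its surroundings. A summit window is 300 bp centered on the summit. The TEAD consensus searched was ACATTCC or GCATTCC and the AP-1 consensus TGAGTCA or TGACTCA, each on both strands. The sequences below are the plus strand of GRCm38, 5′ to 3′, with the TEAD match in capitals. On this strand a TEAD match of the opposite strand reads GGAATGC or GGAATGT. Sites in a promoter or 5′ UTR are shown with 10 bases on each side. They are the promoter sites of *Amotl2* (chr9:102717728-102717754) and *Lats2* (chr14:57746103-57746129), and the whole control female windows upstream of *Ankrd1* (chr19:36129253-36129552) and *Lats2* (chr14:57760543-57760842).
Amotl2 region 2: tgaaactctcACATTCCtggcatagca
Lats2 region 3: tacattgttgGCATTCCacgggcgtca
Ankrd1 region 2: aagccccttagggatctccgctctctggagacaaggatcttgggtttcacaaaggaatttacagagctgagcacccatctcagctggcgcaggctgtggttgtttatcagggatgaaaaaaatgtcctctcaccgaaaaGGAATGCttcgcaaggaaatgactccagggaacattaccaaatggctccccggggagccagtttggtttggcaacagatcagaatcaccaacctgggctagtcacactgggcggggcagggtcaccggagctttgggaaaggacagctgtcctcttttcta
Lats2 region 1: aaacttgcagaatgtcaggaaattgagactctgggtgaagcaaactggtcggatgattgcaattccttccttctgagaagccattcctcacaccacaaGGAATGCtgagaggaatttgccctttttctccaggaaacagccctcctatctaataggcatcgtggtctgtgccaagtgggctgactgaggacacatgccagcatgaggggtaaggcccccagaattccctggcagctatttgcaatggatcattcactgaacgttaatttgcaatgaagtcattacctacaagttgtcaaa

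The window upstream of *Lats2* also held a second CATTCC core, without the A or G that the consensus asks for, on the opposite strand and 17 bp from the first. Each of the other 3 sequences held 1 core.

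A further pair of sequences was chosen after their values were seen. In intron 1 of *Tead1* (chr7:112720224-112720290) an AP-1 match, the first capitals, and a TEAD match, the second, started 20 bp apart. This was the only region with both motifs in 1 summit window. At the *Yap1* promoter (chr9:8004721-8004747) the TEAD match lay at the VEDS male summit itself.
Tead1 region 6: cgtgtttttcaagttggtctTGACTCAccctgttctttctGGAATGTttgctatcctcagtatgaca
Yap1 region 1: gcgcgtcgctACATTCCtgcagactcc

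Peaks at the 10 loci varied with the length of the lists. The control female list had 26 peaks at 8 of the 10 loci, the control male list 1 peak at 1 locus, the VEDS female list 0 peaks and the VEDS male list 59 peaks at all 10 loci. Over all protein-coding genes, a peak in a window drawn in the same way was found at 64.1% of genes in the control female list, 4.61% in the control male list, 3.2% in the VEDS female list and 73.5% in the VEDS male list. The control library had more peaks than the VEDS library in females and fewer in males, at these loci and in the whole lists. With 2 libraries against 2, an exact permutation test cannot give a two-sided p below 0.333, so no test between genotypes was made. A locus without a peak in a short list was not taken as closed. Relative to locus length, the 10 genes carried 2.45 peaks per 100 kb in the control female list and 5.55 in the VEDS male list, against 1.66 and 2.94 over all protein-coding loci.

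**Figure D1:**
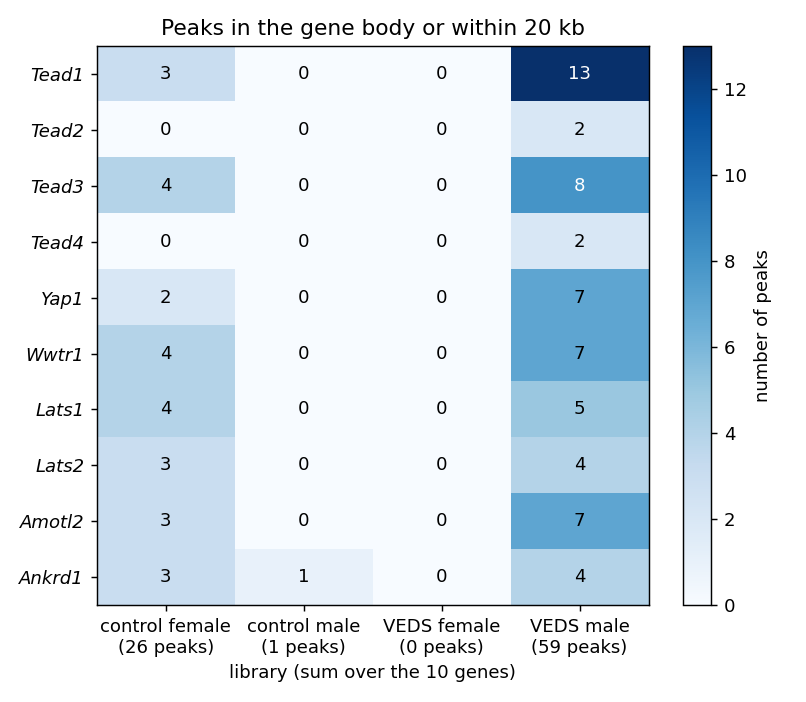
Number of peaks in the gene body or within 20 kb of each of the 10 genes (rows) in each library (columns), with darker blue for more peaks and the sum per library under its name. The control female and VEDS male columns hold 26 and 59 peaks, the control male column 1, at *Ankrd1*, and the VEDS female column 0.

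The 4 TEAD genes, which encode the DNA-binding partners of YAP and TAZ, differed widely in their number of peaks. *Tead1* had 3 peaks in the control female list and 13 in the VEDS male list, the latter a number reached by 1.40% of protein-coding genes. The gene is long, 227 kb, and its density of 4.86 peaks per 100 kb in the VEDS male list was above the 2.94 of all loci, while that of 1.12 in the control female list was below the 1.66. Its promoter region 3, at the TSS (summits 2 bp apart), had 11 fragments (95% exact Poisson interval 5.49 to 19.7) in control female and 37 (26.1 to 51.0) in VEDS male, where it was the highest-ranked *Tead1* peak. These intervals, like all given here, cover counting error only. Next to it lay a weaker peak in each list, 691 bp upstream of the nearest TSS with 20 fragments in VEDS male and 485 bp upstream with 8 in control female, which do not overlap. The highest-ranked *Tead1* peak of the control female list was in intron 10 (region 13), with 11 fragments at rank 13707 of 21176. That region had 22 fragments in VEDS male, with the summit 184 bp away.

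The other 10 *Tead1* regions with a peak in the VEDS male list and none in the control female list were all intronic, and 5 of them carried a motif. Region 6 in intron 1, shown above with both motifs, had 21 fragments (13.0 to 32.1) at rank 18643 of 41444, and the AP-1 and TEAD matches lay 120 and 100 bp from the summit. AP-1 matches alone were in region 5 of intron 1 (15 fragments, 31 bp from the summit) and region 10 of intron 2 (12 fragments, 62 bp). TEAD matches alone were in regions 9 and 11 of intron 2, with 12 and 18 fragments, 23 and 83 bp from the summit. Each of these 5 regions rests on the VEDS male library alone.

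*Tead2* and *Tead4* had 0 peaks in the control female list and 2 each in the VEDS male list. Neither *Tead2* peak was at its own promoter. The stronger, with 26 fragments, lay within 1 kb of a TSS of the neighboring gene *Ccdc155*, and the other, with 18, was also nearest to a TSS of that gene. Both *Tead4* peaks were promoter peaks with 16 fragments (9.15 to 26.0). Region 1, in 5′ UTR exon 1, held a TEAD match 47 bp from the summit and 353 bp downstream of the main TSS, and region 2 lay 135 bp from another annotated start 25.1 kb into the gene.

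*Tead3* had 4 control female and 8 VEDS male peaks in a locus of 59.1 kb, a density of 6.76 and 13.5 per 100 kb. All 4 control female regions were in both long lists. Its promoter region 2, 80 bp upstream of the nearest TSS, had 25 fragments (16.2 to 36.9) in control female and 36 (25.2 to 49.8) in VEDS male, the lowest ratio of the shared regions, 1.44. Region 6 in intron 2, with 22 and 46 fragments, was the only AP-1 region present in both lists. Its AP-1 match was in both windows, 127 bp from the control female summit and 83 bp from the VEDS male summit. The match lay inside the VEDS male peak but outside the control female peak. The highest-ranked peak of the whole set was region 8, with 34 fragments (23.5 to 47.5) at rank 1010 in control female and 96 (77.8 to 117) at rank 535 in VEDS male. It lies downstream of *Tead3* and 69 bp from the TSS of *Fance*, a Fanconi anemia gene. Region 7, with 14 and 47 fragments, was 26 bp from the TSS of *Rpl10a*, a ribosomal protein gene. Neither is a *Tead3* promoter.

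The coactivator genes *Yap1* and *Wwtr1* both had promoter peaks, *Wwtr1* in both long lists and *Yap1* in VEDS male. *Yap1* had 2 peaks in the control female list, neither at the promoter, and 7 in the VEDS male list. Its promoter peak at the main TSS in VEDS male had 33 fragments (22.7 to 46.3) at rank 11474, the highest-ranked of all 38 regions found in VEDS male only. The TEAD match shown above is at this summit, 146 bp upstream of the main TSS. An AP-1 match lay in each of 3 further VEDS male peaks, regions 2, 3 and 5 in introns 1, 2 and 5, with 14, 12 and 13 fragments and matches 116, 145 and 43 bp from the summit. Region 2 is also a promoter region, with its summit 151 bp from another annotated TSS of *Yap1*. The highest-ranked *Yap1* peak in both lists was region 6 in intron 5, 60.5 kb into the gene, with 20 fragments (12.2 to 30.9) in control female and 38 (26.9 to 52.2) in VEDS male, and it held neither motif. Region 7, downstream of the gene, had 12 and 21 fragments with summits 2 bp apart.

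*Wwtr1*, which encodes TAZ, had 4 and 7 peaks. Its promoter peak, 20 bp from the nearest TSS, had 18 fragments (10.7 to 28.4) at rank 8995 in control female and 79 (62.5 to 98.5) at rank 2048 in VEDS male. The ratio of 4.39 was the highest among the shared regions apart from a second, weaker control female peak at *Ankrd1*. A TEAD match 215 bp upstream of the main TSS was 103 bp from the control female summit. It lay inside the VEDS male peak of 1017 bp but outside the 300-bp window there, since the summits were 50 bp apart. A second TEAD match was in intron 2, 33 bp from the summit of region 4, a VEDS male peak of 14 fragments. Introns 2 and 4 had a shared region each (regions 3 and 6), with 8 fragments in control female in both cases and 16 and 18 in VEDS male.

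*Lats1* and *Lats2* encode the kinases that phosphorylate YAP and TAZ, and their loci differed in motif content. *Lats1* had 4 and 5 peaks and 0 TEAD or AP-1 matches in any summit window. Around its start lay 3 regions, with 6 and 7 fragments in control female and 17 and 14 in VEDS male. The peak of 17 fragments (region 3) was 78 bp from the *Lats1* TSS and at an annotated TSS of *Pcmt1*, so it cannot be assigned to either gene. The stronger peaks of the locus were at other genes: region 6 (26 and 44 fragments) was 64 bp from the TSS of *Katna1*, a microtubule-severing subunit, and region 1 (13 and 27 fragments) 43 bp from another TSS of *Pcmt1*, a protein repair methyltransferase. Region 2, with 27 fragments in VEDS male only, was at the TSS of *Nup43*.

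*Lats2* had 3 and 4 peaks, and TEAD matches in 3 regions, 2 of them in both long lists. The promoter peak had 19 fragments (11.4 to 29.7) in control female and 53 (39.7 to 69.3) at rank 4864 in VEDS male, the highest-ranked *Lats2* peak there, with summits 1 bp apart. The match, in 5′ UTR exon 1, was 7 bp downstream of the main TSS and 38 and 37 bp from the summits. Region 1, 2304 bp upstream of the first annotated TSS, was the highest-ranked *Lats2* peak of the control female list, with 26 fragments (17.0 to 38.1) at rank 3458. It had 49 (36.3 to 64.8) in VEDS male, again with summits 1 bp apart, and the match was 49 and 48 bp from them. Region 2, between it and the first TSS, was a VEDS male peak of 22 fragments. Its TEAD match, 77 bp from the summit, was the only TEAD match that lay outside its peak. In intron 2 the control female list alone had a peak, of 7 fragments.

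*Amotl2* encodes an angiomotin-like scaffold that binds YAP, and *Ankrd1* an ankyrin repeat protein widely used as a readout of YAP activity. *Amotl2* had 3 and 7 peaks. All 3 control female regions were shared. The promoter region 2 had 26 fragments (17.0 to 38.1) in control female and 60 (45.8 to 77.2) in VEDS male, and its TEAD match in 5′ UTR exon 1 was 69 and 27 bp from the summits. Region 3, in intron 1 and 5 bp from another annotated TSS, had 17 and 42 fragments and neither motif. Region 5 in intron 5 was the highest-ranked *Amotl2* peak in both lists, with 25 fragments (16.2 to 36.9) at rank 4489 and 75 (59.0 to 94.0) at rank 2661, and also held neither. An AP-1 match was in region 6 downstream of the gene, a VEDS male peak of 22 fragments with the match 37 bp from the summit.

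*Ankrd1* was the only gene of the 10 with a peak in a short list. Its region 2, 9399 bp upstream of the TSS, had 18 fragments (10.7 to 28.4) at rank 9182 of 21176 in control female, 6 (upper bound 13.1) at rank 1010 of 1236 in control male and 56 (42.3 to 72.7) at rank 5562 of 41444 in VEDS male. The TEAD match shown above was 8 bp from the control female summit, 4 bp from the control male summit and 103 bp from the VEDS male summit. The control male peak was in the lower part of its list and is lost with a −log10 q threshold of 5. A second control female peak in the same region (9 fragments, rank 20926) had a CArG box, the site of serum response factor, 4 bp from its summit. The CArG box (CC, 6 bases of A or T, and GG) lies outside the window printed above. Region 1, 13804 bp upstream, had 15 and 34 fragments, a CArG box in both windows and a TEAD match in that of VEDS male, 101 bp from the summit. At the promoter the VEDS male list alone had a peak, of 10 fragments, and a peak of 17 fragments was in coding exon 4. The only other CArG box in the set was in a VEDS male peak in intron 1 of *Tead3*. At the 10 loci, 2 of 26 control female windows and 2 of 59 VEDS male windows held one, against 3.02% and 3.09% over all peaks.

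**Figure D2:**
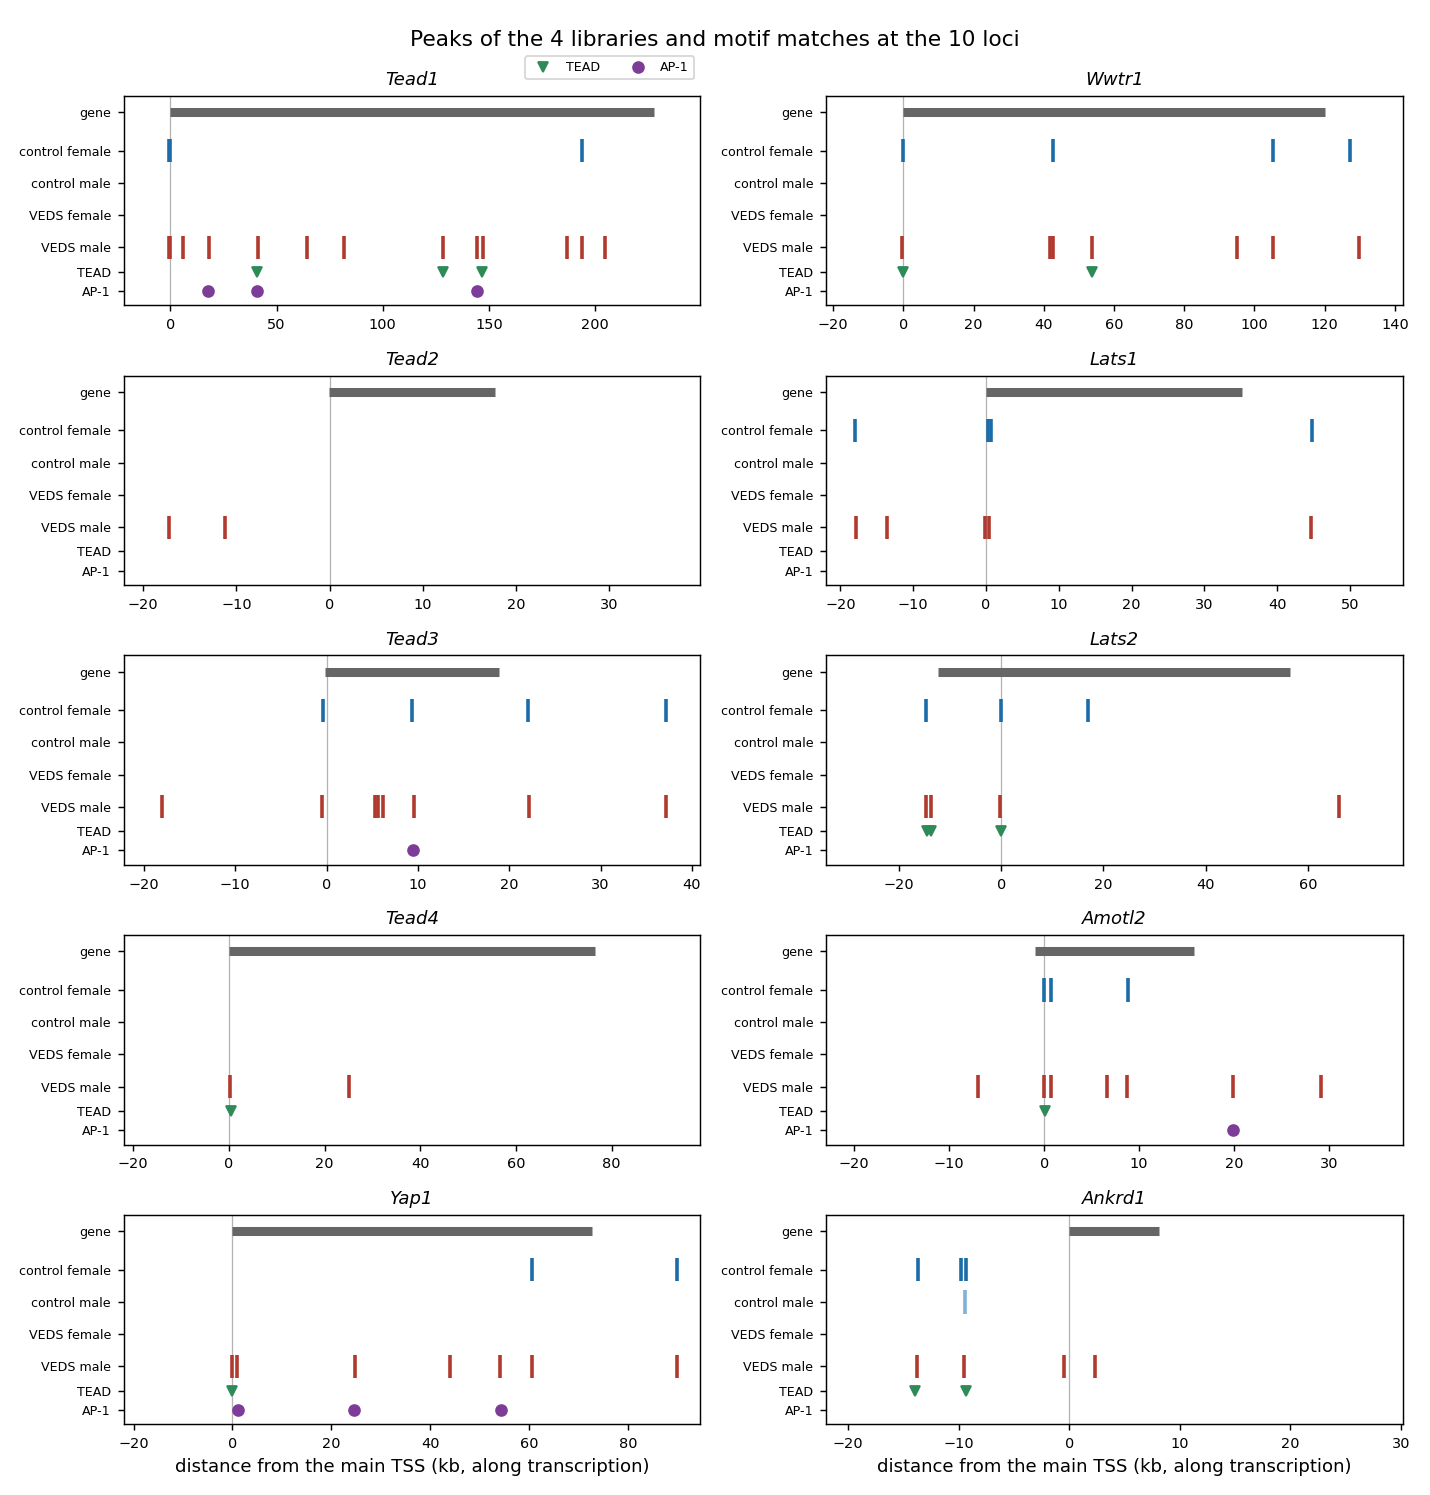
Peaks of each library (vertical bars, centered on the peak and not to width) and motif matches in summit windows (triangles, TEAD; circles, AP-1) at the 10 loci, by distance from the main TSS in kb along transcription, with the gene as a gray bar. The *Ankrd1* panel has the only control male peak, and the *Tead1* panel the region in which both motifs share a window.

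Promoter peaks, within 1 kb of an annotated TSS of the gene, were present for 6 of the 10 genes in the control female list and 9 of 10 in the VEDS male list, with *Tead2* as the exception in the latter. Over all protein-coding genes the shares were 44.9% and 55.5%. In all, 16 of the 63 regions were promoter regions. By the summit of the peak from the longest list, 32 lay in an intron of the main transcript. The promoter windows had a median GC content of 67.8%, against 52.3% in the other regions, and a ratio of observed to expected CpG of 0.813 against 0.281. For 15 regions the nearest protein-coding TSS was that of another gene, in 7 cases within 1 kb. None of these 15 held a TEAD or AP-1 match, so all 20 regions with a motif were nearest to a gene of the set.

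TEAD matches were in 13 regions of 7 genes, and all genes of the set but *Tead2*, *Tead3* and *Lats1* had one. By list, 5 of 26 control female windows held a match, 19.2% (95% Wilson interval 8.51% to 37.9%), and 12 of 59 VEDS male windows, 20.3% (12.0% to 32.3%). Over the whole lists the shares were 10.3% and 10.7%. The share of the whole list lay inside the interval for control female and below it for VEDS male. The windows of a locus are not independent, and the genes were chosen with earlier results known, so no test was made. Of the 13 matches, 8 read GCATTCC and 5 ACATTCC. Counted by gene, 4 of 10 had a TEAD window in the control female list and 7 of 10 in the VEDS male list, against 10.6% and 17.6% of all protein-coding genes. The median number of peaks per locus was 3 and 6 for the 10 genes and 1 and 2 for all protein-coding genes.

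The peaks were then split by their distance from a TSS. Of the control female peaks with the summit within 1 kb of the TSS of any coding gene, 3 of 13 held a TEAD match (23.1%, 8.18% to 50.3%), and of the VEDS male peaks 4 of 20 (20%, 8.07% to 41.6%). Over the whole lists, 5.63% and 6.07% of the peaks placed in the same way did. All of these matches were among the 9 and 14 peaks within 1 kb of a TSS of the 10 genes themselves. Farther from any coding TSS the counts were 2 of 13 (15.4%, 4.33% to 42.2%) and 8 of 39 (20.5%, 10.8% to 35.5%), and both intervals include the share of the whole list, 14.2% and 13.1%. The 5 promoters with a match were those of *Amotl2*, *Lats2*, *Wwtr1*, *Yap1* and *Tead4*. In RefSeq promoter sequences (GRCm38.p6, 300 bp around each start), 8 of the 10 genes were matched with 12 windows. A TEAD match was in 6 windows of 5 genes, *Wwtr1*, *Yap1*, *Amotl2*, *Lats2* and *Tead3*, some of which overlap each other, against 7% of all 32851 promoters. The pair of matches near *Tead3* fell outside the summit windows. An AP-1 match was in 5.2% of all promoters and in 0 of the 12.

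AP-1 matches were in 8 regions of 4 genes, *Tead1*, *Tead3*, *Yap1* and *Amotl2*. They were in 1 of 26 control female windows (3.85%, 0.682% to 18.9%) and 8 of 59 VEDS male windows (13.6%, 7.03% to 24.5%), and both intervals include the share of the whole list, 11.6% in each. Within 1 kb of any coding TSS, 0 of 13 and 1 of 20 held a match, against 4.1% and 4.45% of the whole lists, and farther away 1 of 13 and 7 of 39 did, against 17.9% and 15.2%. Counted by gene, 1 of 10 had an AP-1 window in the control female list and 4 of 10 in the VEDS male list, against 10.3% and 17.4% of all protein-coding genes. Both motifs shared a window in 0 of 26 and 1 of 59 cases, against 1.52% of each whole list. Among all protein-coding genes, 1.43% in the control female list and 2.81% in the VEDS male list had such a window.

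Of 17 TEAD matches in the windows of the long lists, 10 were within 50 bp of the summit (median 48 bp), and of 9 AP-1 matches 3 were (median 83 bp). A site seen in both lists is counted in each, so these matches come from 13 TEAD and 8 AP-1 sites. The distances were not measured over all windows of the lists. Whether either motif lay nearer the summit here than elsewhere was therefore not tested.

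**Figure D3:**
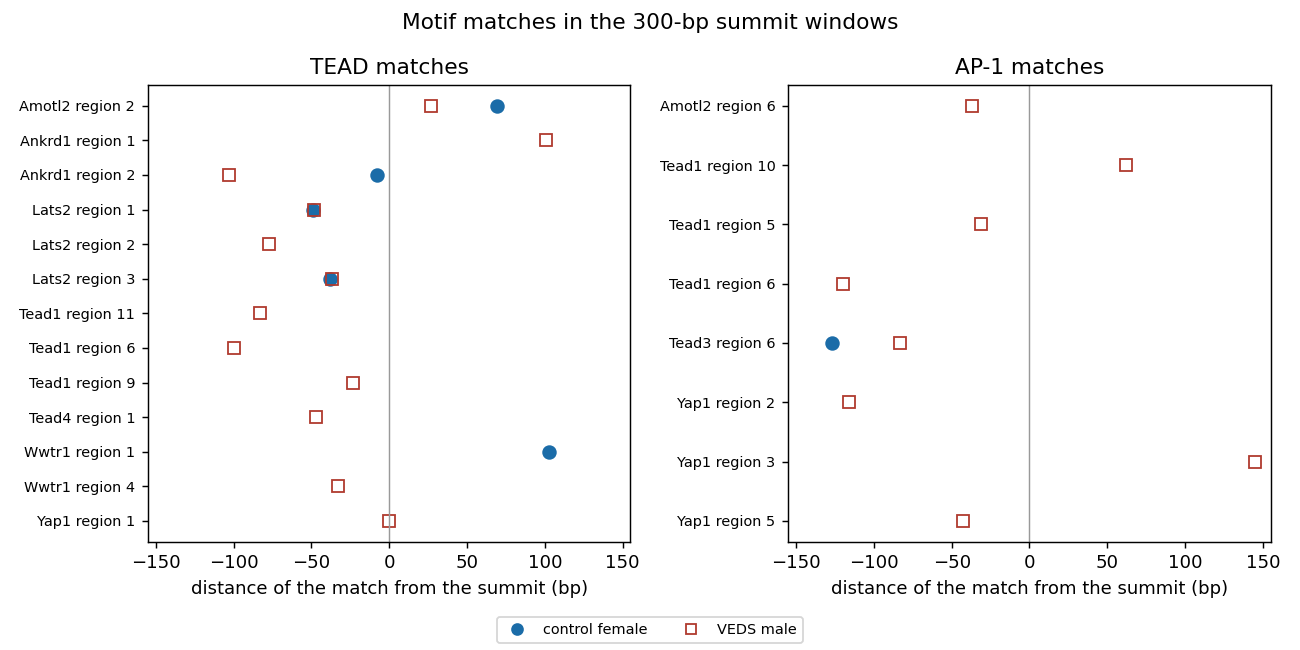
Distance of each TEAD match (left) and AP-1 match (right) from the peak summit in bp, by region, in the 300-bp windows of the control female (filled circles) and VEDS male (open squares) lists. At both *Lats2* regions seen in both lists the positions differ by 1 bp, at *Ankrd1* region 2 the match is 8 bp from the control female and 103 bp from the VEDS male summit, and at *Yap1* region 1 it is at the summit.

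The regions found in both long lists were the stronger ones. Of the 26 control female peaks, 22 overlapped a VEDS male peak, and of the 59 VEDS male peaks, 21 overlapped a control female peak. Over the whole lists 95% and 47.6% did. The 21 shared regions had a median of 42 fragments in the VEDS male library, and the 38 regions found there only had 16.5, against 37 and 15 for all VEDS male peaks split in the same way. The 4 regions found in control female only, at *Tead1*, *Wwtr1*, *Lats1* and *Lats2*, had 5 to 8 fragments. A region called in 1 long list only was therefore weak in most cases, and its absence from the other list was not taken as a difference. TEAD matches were in 6 of the 21 shared regions and 7 of the 38, and AP-1 matches in 1 and 7. A region counted when the window of any list held the match, and at the *Wwtr1* promoter only the control female window did. Over all VEDS male peaks the shares count VEDS male windows alone. TEAD was in 10.4% of the peaks overlapping the control female list and 11% of the others, and AP-1 in 11.7% and 11.6%.

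In the 22 overlapping pairs the VEDS male library had 1.44 to 6.22 times as many fragments at the summit as the control female library, with a median of 2.29. These ratios are not scaled for the depth of the libraries, which is unknown. Over all pairs of the lists the median was 2.47 (interquartile range 2.06 to 3). The median at these loci lay inside this range. The summits were 1 to 282 bp apart with a median of 24 bp, against 36 bp over all pairs, and 15 of the 22 were within 50 bp, against 62.6%. The highest ratio and the largest distance were both those of the second control female peak in *Ankrd1* region 2. That peak was paired with the same VEDS male peak as the first. The next highest ratio was 4.39 and the next largest distance 202 bp.

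Peaks of the 10 genes stood near the middle of their own lists, ordered by −log10 q. The median place was 57.8% from the top in the control female list and 54.2% in the VEDS male list. Only 2 of 26 and 3 of 59 were in the top 10%. They were *Tead3* region 8 and *Lats1* region 6, both at other genes, in control female, and *Tead3* region 8, the *Wwtr1* promoter and *Amotl2* region 5 in VEDS male.

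**Figure D4:**
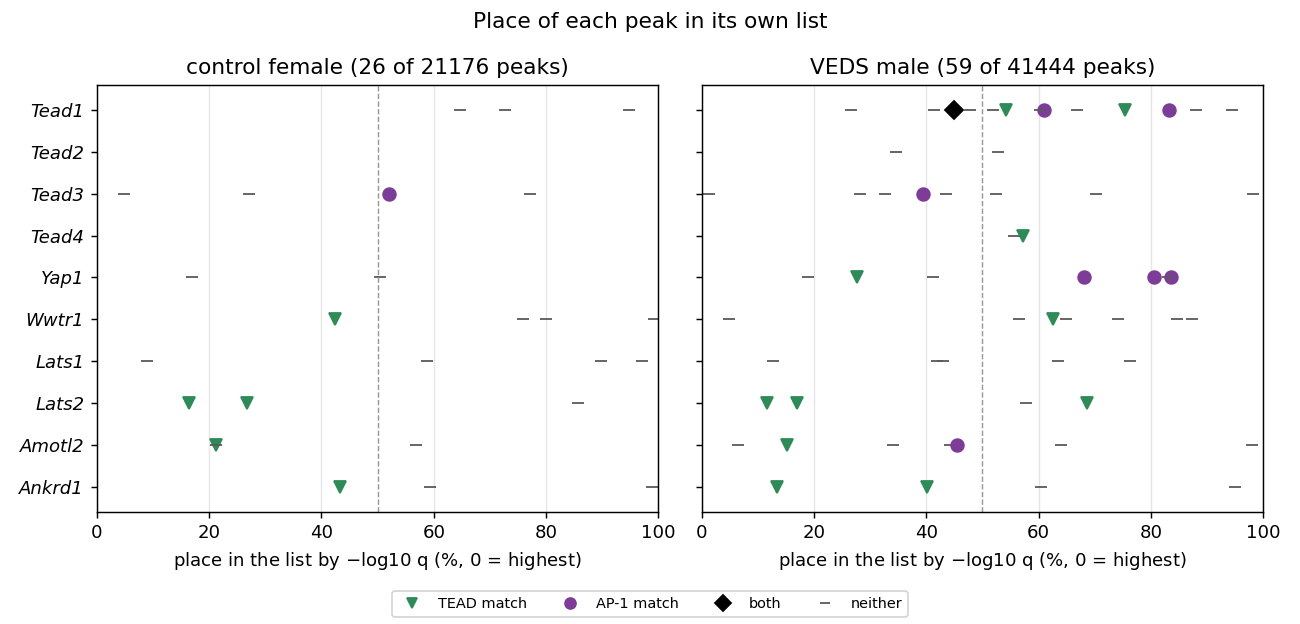
Place of each peak in its own list by −log10 q, in percent from the top, for the control female list (left) and the VEDS male list (right), with the dashed line at the middle of the list. *Lats2* has TEAD peaks (triangles) in the top 20% of the VEDS male list, and the *Yap1* peaks with AP-1 matches (circles) are past 60%.

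The number of peaks per locus was also set against locus length, since long genes have more room for them. The reference was the mean over protein-coding loci of 0.8 to 1.2 times the length. In each long list 8 of the 10 genes had more peaks than this mean, and *Tead2* and *Tead4* had fewer. The share of all protein-coding loci above their own mean was not measured, and the mean includes loci without a peak. Peaks at the starts of neighboring genes are counted too, as at *Tead3* regions 7 and 8. Whether the 10 genes stand out was not tested. In VEDS male, *Tead1* had 13 peaks against a mean of 6.05, *Tead3* 8 against 2.31, *Amotl2* 7 against 2.18, *Yap1* 7 against 3.21 and *Wwtr1* 7 against 4.10. In control female the gap was small for *Tead1* (3 against 2.70) and *Yap1* (2 against 1.73) and larger for *Tead3* (4 against 1.42) and *Ankrd1* (3 against 1.18). *Tead4* had 2 VEDS male peaks against a mean of 3.29 and *Tead2* 2 against 2.25.

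**Figure D5:**
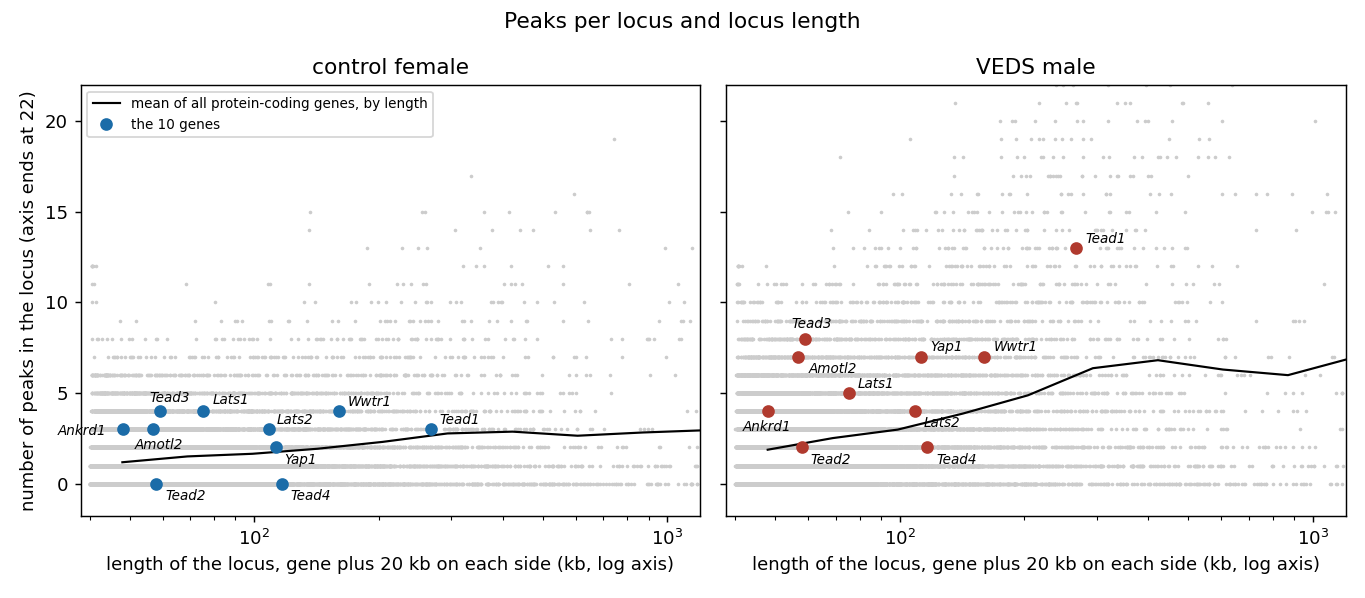
Number of peaks in each locus against locus length (gene plus 20 kb on each side, in kb on a log axis) in the control female (left) and VEDS male (right) lists. Gray points are all protein-coding genes, those above the axis limit not drawn, the black line is their mean by length, and the colored points are the 10 genes, with *Tead1* at 3 and 13 peaks.

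The other genes of the pathway gave the same pattern by library. Of 22 further regulators, among them the kinases *Stk3* and *Stk4*, the adaptors *Sav1* and *Nf2* and the TEAD cofactor *Vgll4*, 21 had a peak in the control female list, 3 in the control male list (*Fat4*, *Limd1* and *Vgll4*), 0 in the VEDS female list and 22 in the VEDS male list. The shares of all protein-coding genes with a peak were 64.1%, 4.61%, 3.2% and 73.5% in the same order. In the control female and VEDS male lists, 9 and 9 of the 22 had a TEAD window, against 10.6% and 17.6% of all protein-coding genes, and 4 and 7 had an AP-1 window, against 10.3% and 17.4%. Their median number of peaks was 3 and 4, against 1 and 2 for all protein-coding genes. *Ptpn14*, a phosphatase that binds YAP, had both motifs in 1 window in intron 18 in both long lists, with 19 fragments in control female and 32 in VEDS male. Of 18 further known targets, 14 had a peak in the control female list, 1 in the control male list, 0 in the VEDS female list and 16 in the VEDS male list. A TEAD window was found for 6 and 7 of these targets in the long lists, against 10.6% and 17.6% of all protein-coding genes. An AP-1 window was found for 6 and 9, against 10.3% and 17.4%. The targets had a median of 2 and 5 peaks, against 1 and 2 for all protein-coding genes. The matricellular genes *Ccn1* and *Ccn2* both had a promoter peak with a TEAD match in both long lists, of 27 and 63 fragments at *Ccn1* and 33 and 79 at *Ccn2*. Both motifs shared a window in intron 3 of *Asap1*, which encodes a GTPase-activating protein, in both long lists (9 and 24 fragments), and upstream of *Axl*, a receptor tyrosine kinase gene, in VEDS male only (13 fragments). The control male peak among these targets was at the *Axl* locus.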

How the data were processed

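ATAC-seq peaks from aortic nuclei were compared in 4 libraries grouped by the genotype and sex in the sample labels. The authors aligned reads to mm10 (GRCm38) and called each library's peaks separately with MACS2. Per the methods, the calls allowed for the offset of Tn5 insertion, counted repeated fragments of a nucleus once and left out a published list of problem regions. The deposited lists give a score, a fold enrichment (a ratio to the local background of the library), −log10 p and −log10 q for each peak, and the position of the summit. Fold enrichment, −log10 p and −log10 q were used within a list only. Fragments at a summit were recovered as the whole number matching the deposited fold enrichment and −log10 p within 0.002, and in 500 simulated peaks 100% were recovered. Fragments were set side by side between lists without scaling, since the total depth of the libraries is unknown here. All peaks were placed on GENCODE vM21 genes, and motifs were searched as fixed letters in 300-bp windows. The 10 genes, the wider lists and the marker lists were chosen with earlier results of these data known. Named were all 10 genes, each region with a motif, promoter regions, the highest-ranked peak of each gene, regions in a short list and, in the wider lists, *Ccn1*, *Ccn2* and genes with both motifs. Alternatives were stricter −log10 q, equal list size, other distances, overlaps, windows and consensus letters, a filter on masked bases, assignment by nearest TSS and leaving out each library. Scripts ran in Python 3.11.15 (pysam 0.24.0, scipy 1.17.1, pandas 2.3.3, numpy 2.4.6, matplotlib 3.10.9).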

Additional observations from a re-analysis of the deposited data

Results flagged for a closer look

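The difference in peak number at the 10 loci between VEDS and control had opposite signs in the sexes. In females the VEDS library had 0 peaks and the control library 26, a VEDS minus control difference of -26, and in males the VEDS library had 59 and the control library 1, a difference of 58. Each side is 1 library, and the difference between the sexes was not tested. The whole lists differ in the same directions, with 504 against 21176 peaks in females and 41444 against 1236 in males.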

How the results depend on the processing

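Of 129 values recomputed under 19 settings, 99 stayed within 1.5 times the value reported, which were 63 regions, 13 with TEAD, 8 with AP-1, 1 with both, 21 in both long lists, with a peak at 8 genes in control female, 1 in control male, 0 in VEDS female and 10 in VEDS male. A −log10 q of at least 5 left 0 genes in control male and 5 AP-1 regions. A −log10 q of at least 10 left 30 regions, 5 genes in control female, 0 in control male, 8 TEAD regions, 3 AP-1 regions and 8 shared regions. With the 504 highest-ranked peaks of each list, all counts were 0, because no peak at these loci ranked that high. The gene body alone held 39 regions, 12 of them shared, and 0 genes in control male. Within 5 kb 0 genes had a control male peak, and within 50 kb 2 did. Windows of 200 bp gave 5 AP-1 regions and 0 with both motifs, while windows of 500 bp, the whole peak and the CATTCC core each gave 2 with both. Leaving out each library in turn gave 26 to 63 regions, 5 to 13 with TEAD, 1 to 8 with AP-1 and 0 to 1 with both, and in each case the lowest value was without the VEDS male library. The overlap rule, the masked-base filter, the nearest-TSS rule and the other consensus forms moved no count past 1.5 times. No paired analysis was possible because no result came from a test. The libraries match by sex only, with 1 control and 1 VEDS library in each. Medians of 6 and 7 fragments per summit limit what the short lists can show.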

Other observations

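Consensus letters of other factors were also read in the summit windows of the 10 genes. A cAMP response element lay in the promoter window of *Tead1* region 3 and in that of *Amotl2* region 3, next to an alternative start, in 2 control female and 2 VEDS male windows, against 2.59% and 1.77% of all windows of these lists. A MEF2 match lay in *Yap1* region 6, in intron 5, and in *Lats2* region 2, upstream of the gene, in 1 control female and 2 VEDS male windows, against 5.55% and 5.79% of all windows. These values are descriptions, with no test.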
